A study of Arabidopsis thaliana with 4 samples.

Results

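The nuclear genes for the light-harvesting antenna and for subunits of photosystems I and II were followed in Arabidopsis thaliana Col-0 after 30 min with the leaf volatile (E)-2-hexenal. They were chosen by locus code as known parts of these complexes, with no threshold on measured values. All 41 LHCB, LHCA, PSA and PSB loci of the list were present among the 30361 loci of the table. They comprise 9 genes of the LHCII trimer (LHCB1 to LHCB3), 5 of the minor antenna of photosystem II (LHCB4 to LHCB6), 6 of the antenna of photosystem I (LHCA), 12 of photosystem I subunits (PSA) and 9 of photosystem II subunits (PSB).

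Antenna proteins bind chlorophyll and pass the absorbed energy to the reaction centres of the 2 photosystems. Photosystem II oxidises water and feeds electrons into the thylakoid chain, and photosystem I passes them on to ferredoxin. The core subunits that carry the reaction centre pigments are encoded in the chloroplast, while the genes described here are nuclear, and their products are imported. Transcripts of this group are known to be abundant in green tissue and to respond to light, the clock and the state of the plastid.

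Whole wild-type plants were measured on 4 one-colour arrays that give 1 intensity per locus. One group, of 1 array, held plants with the acetonitrile solvent, in a volume that the labels do not state. The other, of 3 arrays labelled as biological replicates, held plants with 10 µM (E)-2-hexenal. The hexenal was given as 3 µL of a 1 M solution in acetonitrile on paper under the lid. All plants had grown at 23 °C with a day of 14 h and a night of 10 h, and were closed in a 340 cm3 box at 25 °C under 80 µmol photons per square metre and second. RNA came from at least 6 plants. Levels below are log2 intensities after quantile normalization. A difference is the hexenal level minus the acetonitrile level on that scale, so that 1 is a 2-fold change. Errors after ± are standard errors from limma's fit of the 3 hexenal arrays against the control. The number of arrays limits the precision, and the spread of control plants is unknown.

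Median deposited intensities lay between 936 and 982 on the 4 arrays. All 6 flower markers (AP1, AP3, PI, AG, SEP3 and LFY) were in the dimmest 25% of loci, and the log2 of their summed intensity was 8.88 with acetonitrile, against 9.91, 8.85 and 8.86 with hexenal, in the order of the replicates. Of 6 root markers 3 were in that dimmest 25%, and the log2 of their sum was 15.10 with acetonitrile and 14.25, 15.20 and 14.67 with hexenal. The brightest of these was PYK10, a glucosidase gene of roots and seedlings, which makes up most of the sum. It was at 14.84 on the control array and at 13.68, 14.94 and 14.40 on the hexenal arrays. The 6 root markers did not move together. Above the control were 2 of them on hexenal array 1, 4 on array 2 and 1 on array 3, with the others below it. On array 1, IRT1 and SCR were higher than the control by 0.50 and 0.23. The part of such tissue differences in the values below was not tested. In whole plants, fewer green cells and less of a transcript per cell cannot be told apart.

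The photosystem and antenna genes lay at the top of the intensity scale. Of the 41 loci, 33 were among the 304 brightest of the table (the brightest 1% by mean level), and 6 were among the 20 brightest. The highest deposited intensity of any locus was 57290, that of LHCA2 on hexenal array 3. After normalization the highest level was 15.78. Quantile normalization gives every array the same highest level, so 15.78 is not a measured limit of the arrays. Whether the arrays saturate was not tested. For 27 of the 41 genes the control level lay less than 1 below 15.78. A 2-fold rise of these genes would have passed the highest normalized level of any locus. The distance was 0.028 for LHCA1 and 0.95 for PSAH1, the smallest and the largest of these 27. Brightness also depends on the probes, so its order is not an order of transcript amounts.

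**Figure D1:**
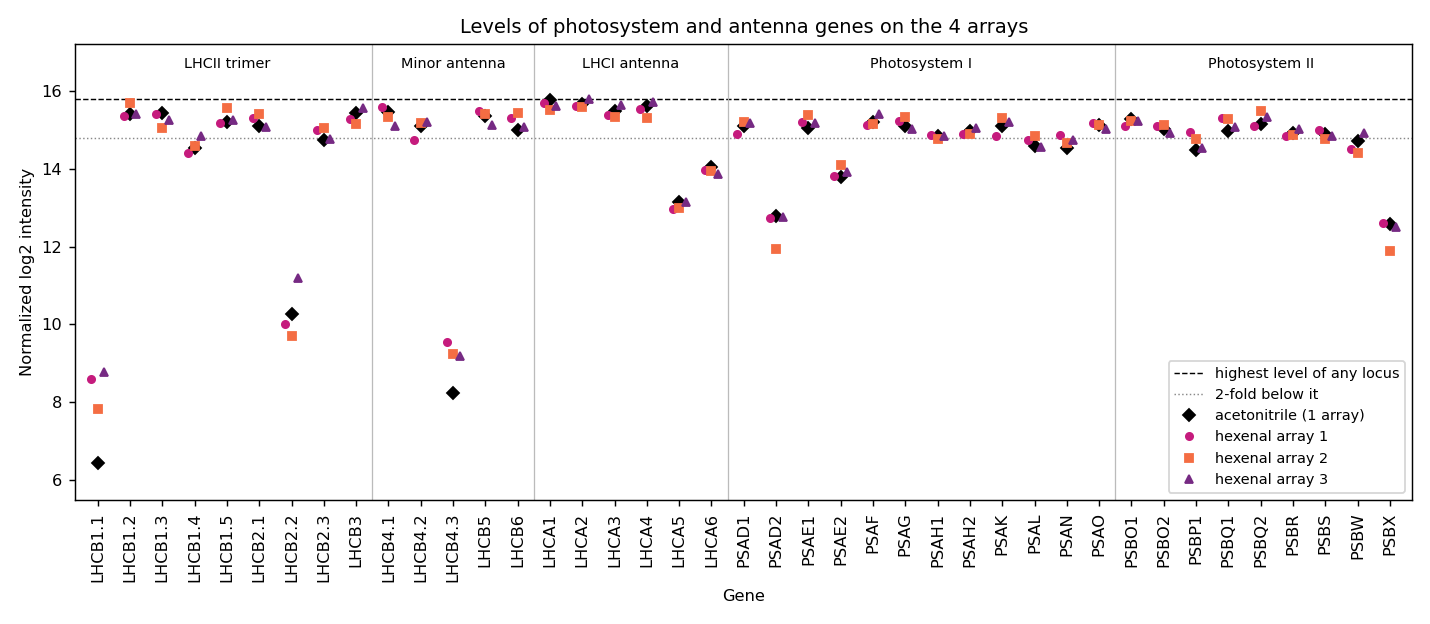
Normalized log2 intensity of the 41 genes on the acetonitrile array (diamonds) and the 3 hexenal arrays (circles, squares and triangles), grouped by complex. The dashed line is the highest level of any locus (15.78) and the dotted line lies 2-fold below it. Most genes crowd between these lines, and LHCB1.1, LHCB4.3 and LHCB2.2 are the lowest.

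The hexenal arrays were compared with the acetonitrile array gene by gene. No gene of either photosystem or of the antenna was called as changed. By limma, 0 of 41 had both a p under 0.05 after Benjamini-Hochberg adjustment over all loci and a change of 2-fold or more, against 0.899% of all loci. The smallest adjusted p of a member was 0.188, at LHCB1.1. The smallest change among the 273 called loci of the table was 1.80 on the log2 scale, so the count of 0 does not show that no member changed by 2-fold. An unadjusted p under 0.05 was found for 2 of the 41, LHCB1.1 and LHCB4.3, against 8.75% of all loci. The same 2 genes were the ones with a mean difference of at least 2-fold, which 7.22% of all loci had.

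The median difference over the 41 genes was 0.00013, beside -0.032 over all loci. The median size of the difference, without its sign, was 0.10 for the members and 0.27 for all loci. The SD over the 3 hexenal arrays had a median of 0.17 among the members and 0.24 among all loci. For 14 of the 41 genes the mean difference was larger than this SD, a share of 34.1%, against 56.1% of all loci. That share was 25.9% among the 27 genes with a control level less than 1 below the highest level, and 50% among the other 14. Loci of like brightness differed from the control less than the table as a whole. The 271 other loci of the brightest 1% had a median size of difference of 0.14 and a median SD of 0.15, beside 0.087 and 0.17 for the 33 members in that band.

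The 95% interval of the difference lay inside a 2-fold change in both directions for 36 of 41 genes, against 48.6% of all loci. The share was 100% among the 27 genes less than 1 below the highest level on the control array, and 64.3% among the 14 others. The share among other loci of like brightness is not given, so the contrast with all loci cannot be told apart from position on the scale. The 5 exceptions were LHCB1.1, LHCB2.2, LHCB4.3, PSAD2 and PSBX, all of them outside the brightest 1%. The intervals use the spread of the hexenal arrays and assume that control arrays vary alike. In 18 genes the upper end passed the highest level of any locus.

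**Figure D2:**
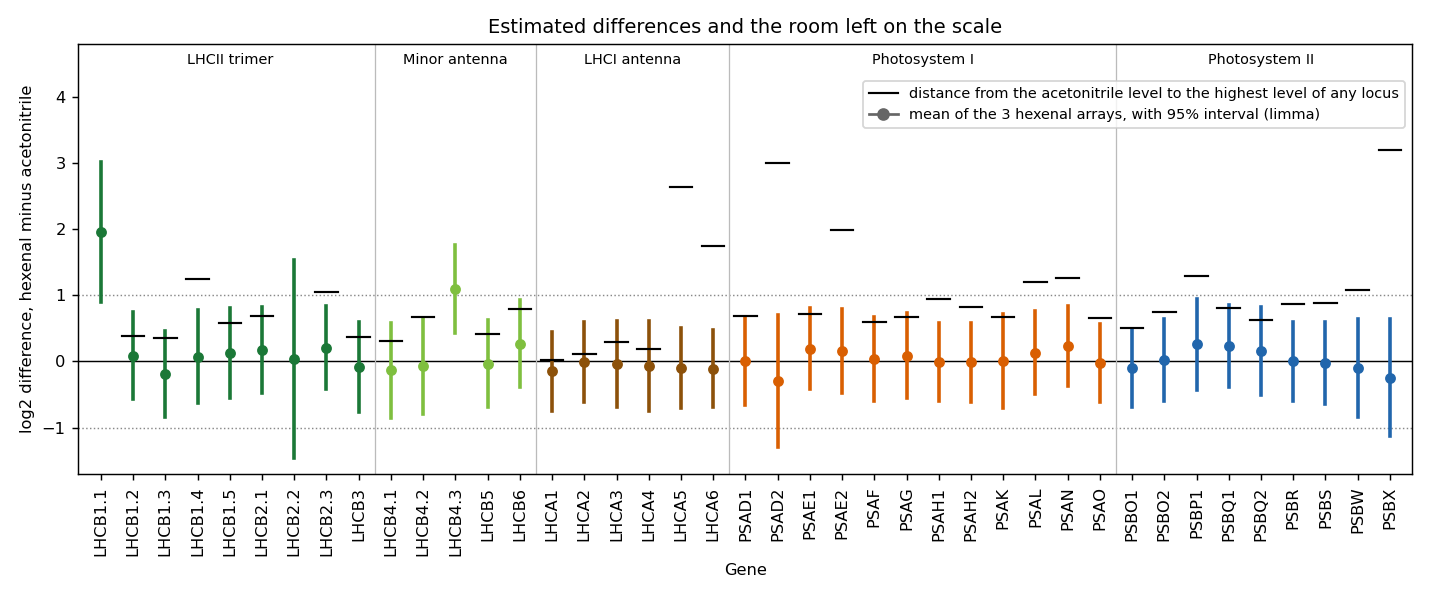
Mean log2 difference between the 3 hexenal arrays and the acetonitrile array for each gene, with its 95% interval from limma. Black bars mark the distance from the acetonitrile level to the highest level of any locus where it is under 3.2, dotted lines mark a 2-fold change, and 36 of the 41 intervals lie between the dotted lines.

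Counted by array, 9 genes had all 3 hexenal arrays above the control and 5 had all 3 below it. These shares, 22% and 12.2%, compare with 26.1% and 32.4% of all loci. The other 27 genes had hexenal arrays on both sides of the control or level with it. With 2 hexenal arrays in place of 3 the counts above and below were 16 and 8 without array 1, 10 and 5 without array 2, and 14 and 15 without array 3. Any locus has 2 arrays on one side more easily than 3. The shares of all loci with 2 arrays are not given, so these counts have no background here. Hexenal array 2 stood farthest from the control in these genes. The median size of the difference was 0.24 on array 2, 0.11 on array 1 and 0.11 on array 3. Over all loci the order was another, with 0.33, 0.36 and 0.20 in the same sequence.

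**Figure D3:**
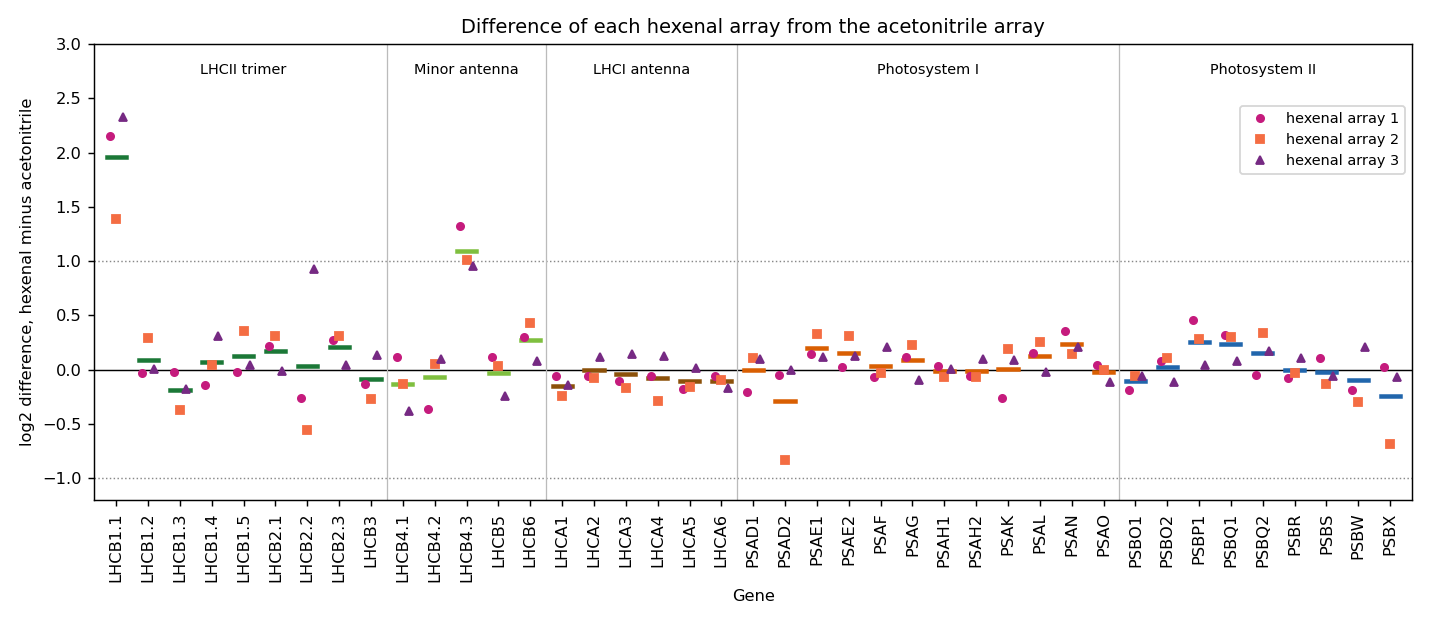
log2 difference of each hexenal array (symbols) from the acetonitrile array for the 41 genes, with the mean as a coloured bar and dotted lines at a 2-fold change. LHCB1.1 and LHCB4.3 lie around or above the upper line on all 3 arrays, and most other genes scatter around 0.

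The LHCII trimer is the main peripheral antenna of photosystem II and is built from LHCB1, LHCB2 and LHCB3 (AT5G54270). Its 9 genes had a median difference of 0.087, with 2 genes above the control on all 3 arrays and 1 below. These shares, 22.2% and 11.1%, were below the 26.1% and 32.4% of all loci. LHCB1.1 (CAB2, AT1G29920) had the largest difference of all 41 genes. It was at 6.45 on the control array and at 8.60, 7.83 and 8.78 on hexenal arrays 1, 2 and 3. All hexenal arrays were higher, by 1.96 ± 0.42 on average, and the gene was not called (adjusted p = 0.188 by limma). The deposited intensities behind these levels were 90.1 for acetonitrile and 381, 223 and 441 for hexenal. Only 8.92% of loci were dimmer on the control array, and low intensities may hold background. In the dimmest 25% of loci on that array, 4.24% had a mean at least 2-fold higher with every hexenal array above the control.

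LHCB1.1 lies between LHCB1.2 and LHCB1.3 in the gene order of the reference, next to each of them, and the 5 LHCB1 genes encode nearly the same protein. Near-identical copies may share probes, which was not tested, so values of single copies are uncertain. LHCB1.2 (CAB3, AT1G29910) was at 15.39 with acetonitrile and 15.36, 15.69 and 15.40 with hexenal. LHCB1.3 (CAB1, AT1G29930) was at 15.42 with acetonitrile, and the hexenal arrays gave 15.41, 15.05 and 15.25, all below it. LHCB1.3 had the lowest mean difference of the trimer genes (-0.19 ± 0.26).

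The pair LHCB1.4 (AT2G34430) and LHCB1.5 (AT2G34420) are neighbours as well. For LHCB1.4 the levels were 14.53 on the control and 14.39, 14.57 and 14.84 on the hexenal arrays. For LHCB1.5 they were 15.20 and then 15.17, 15.55 and 15.24. The control lay within the hexenal range in both genes, and array 2 was the highest for LHCB1.5 while array 3 was for LHCB1.4. Leaving LHCB1.1 aside, the LHCB1 genes had mean differences between -0.19 and 0.13.

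LHCB2 proteins are the trimer subunits whose phosphorylation moves antenna between the photosystems. LHCB2.1 (AT2G05100) was at 15.09 with acetonitrile and 15.31, 15.41 and 15.08 with hexenal. LHCB2.3 (AT3G27690) was at 14.73 and then 15.00, 15.04 and 14.77, above the control on all arrays, with a mean difference of 0.21 ± 0.25. LHCB2.2 (AT2G05070), the neighbour of LHCB2.1, was the most variable of the 41 genes: its control level was 10.27, and its hexenal levels were 10.00, 9.70 and 11.19. Array 3 alone was above the control there, and the SD over the hexenal arrays was 0.79. Probe sharing between the LHCB2 copies was not tested either, so the values of LHCB2.2 are uncertain. LHCB3 was at 15.42 and then at 15.28, 15.14 and 15.55, on both sides of the control.

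The minor antenna proteins link the trimers to the photosystem II core, with CP29 encoded by LHCB4, CP26 by LHCB5 (AT4G10340) and CP24 by LHCB6 (AT1G15820). The median difference of the 5 genes was -0.032. LHCB4.3 (AT2G40100), an isoform of CP29 known from plants in strong light, was at 8.23 on the control array and at 9.55, 9.24 and 9.19 on hexenal arrays 1, 2 and 3. Every hexenal array lay above the control, and the mean difference was 1.1 ± 0.27 (adjusted p = 0.257 by limma, not called). Of all loci, 4.21% had all hexenal arrays above the control and a mean at least 2-fold higher, and 7.11% of those in the next dimmest 25% on the control array, where LHCB4.3 lies.

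The other LHCB4 genes encode the main forms of CP29. LHCB4.1 (AT5G01530) was at 15.47 with acetonitrile and 15.58, 15.33 and 15.09 with hexenal. LHCB4.2 (AT3G08940) was at 15.11 and then 14.74, 15.16 and 15.20. Their differences from the control changed sign between arrays, and the difference between LHCB4 copies was not tested. LHCB6 was at 14.99 and then at 15.29, 15.42 and 15.06, higher on all hexenal arrays with a mean of 0.27 ± 0.26. LHCB5 had a mean difference of -0.032 ± 0.26. The LHCB6 interval ran from -0.39 to 0.93, and its control level lay 0.79 below the highest level of any locus.

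The antenna of photosystem I is formed by LHCA1 (AT3G54890) to LHCA4 (AT3G47470), and the rarer LHCA5 (AT1G45474) and LHCA6 (AT1G19150) join the photosystem to the NDH complex of cyclic electron flow. All 6 LHCA genes had a mean below the control, from -0.15 ± 0.24 at LHCA1 to -0.0081 ± 0.24 at LHCA2 (AT3G61470), with a median of -0.090. None of these differences exceeded its SE, and the sign of LHCA2 turned with cyclic loess normalization (0.028) and without array 1 (0.024). On hexenal arrays 1 and 2 all 6 genes were below the control, with medians of -0.062 and -0.16. Of all 30361 loci, 16344 had a mean below the control, and 15586 and 15988 were below it on arrays 1 and 2. The genes share 1 control array, so their signs are not independent. On array 3 they had a median of 0.069, and 4 of the 6 were above it. Without array 2 the means of LHCA2, LHCA3 (AT1G61520) and LHCA4 were 0.025, 0.027 and 0.039.

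LHCA1 was at 15.75 with acetonitrile and 15.69, 15.51 and 15.61 with hexenal. LHCA6 was at 14.03 and then 13.98, 13.94 and 13.86. These 2 of 6 genes, 33.3%, were below the control on all 3 arrays, against 32.4% of all loci. LHCA2 was at 15.66 and then 15.60, 15.58 and 15.78. For LHCA3 the levels were 15.49 and then 15.38, 15.32 and 15.63, and for LHCA4 15.60 and then 15.54, 15.31 and 15.72. In these 3 genes array 3 alone was above the control. LHCA5 had a mean difference of -0.10 ± 0.24. LHCA5 and LHCA6 lay 2.64 and 1.74 below the highest level of any locus, so a 2-fold rise would have stayed below it.

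Photosystem I subunits have different roles around the core. PSAD and PSAE bind ferredoxin on the stromal side, PSAF (AT1G31330) and PSAN (AT5G64040) take part in docking plastocyanin, PSAG (AT1G55670) and PSAK (AT1G30380) lie next to the antenna, and PSAH, PSAL (AT4G12800) and PSAO (AT1G08380) serve as docking site for LHCII. The 12 genes had a median difference of 0.021. On all 3 hexenal arrays 3 genes were above the control and 1 was below. The shares were 25% and 8.33%, against 26.1% and 32.4% of all loci.

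Of the ferredoxin-side genes, PSAE1 (AT4G28750) was at 15.05 with acetonitrile and 15.20, 15.38 and 15.17 with hexenal. PSAE2 (AT2G20260) was at 13.80 and then 13.82, 14.11 and 13.92. Both PSAE copies were above the control on all hexenal arrays, with array 2 the highest, and their mean differences were 0.20 ± 0.24 and 0.15 ± 0.25. PSAD1 (AT4G02770) was at 15.09 and then 14.88, 15.20 and 15.18, on both sides. PSAD2 (AT1G03130) was at 12.77 on the control array and at 12.72, 11.94 and 12.77 on the hexenal arrays. Its mean of -0.29 ± 0.40, the lowest of the 41 genes, came from array 2, and without that array the mean was -0.025.

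On the lumenal side, PSAN was at 14.52 with acetonitrile and 14.88, 14.67 and 14.73 with hexenal, above the control on every hexenal array, with a mean of 0.24 ± 0.24. PSAF had a mean difference of 0.036 ± 0.25. Of the LHCII docking genes, PSAH1 (AT3G16140) was at 14.83 and then 14.86, 14.76 and 14.84. PSAH2 (AT1G52230) was at 14.96 and then 14.90, 14.89 and 15.05. PSAH1 had the smallest SD over the hexenal arrays of the 41 genes, 0.051, and that of PSAH2 was 0.092. PSAO was at 15.12 on the control array and at 15.16, 15.12 and 15.01 on the hexenal arrays. PSAL, PSAG and PSAK had mean differences of 0.13, 0.084 and 0.0048, each with hexenal arrays on both sides of the control.

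Among photosystem II subunits, PSBO, PSBP and PSBQ shield the manganese cluster that splits water, PSBR (AT1G79040) helps to hold them, PSBS (AT1G44575) senses the lumen pH and triggers the harmless release of excess energy as heat, and PSBW (AT2G30570) and PSBX (AT2G06520) are small membrane subunits. The median of the 9 genes was -1.4e-05, the value of PSBR, with 2 genes above the control on all hexenal arrays and 1 below. The shares were 22.2% and 11.1%, against 26.1% and 32.4% of all loci. PSBP1 (AT1G06680) was at 14.48 with acetonitrile and 14.93, 14.76 and 14.52 with hexenal. PSBQ1 (PSBQA, AT4G21280) was at 14.98 and then 15.29, 15.28 and 15.06. These were the 2 genes above the control on every hexenal array, with means of 0.26 ± 0.27 and 0.23 ± 0.25, and array 3 was nearest to the control in both. PSBQ2 (AT4G05180) was at 15.15 and then 15.11, 15.49 and 15.32, with array 1 below the control.

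PSBO1 (AT5G66570) was at 15.28 on the control array and 15.09, 15.22 and 15.22 on the hexenal arrays, all of them lower. Its deposited intensity was the same, 37875, on hexenal arrays 2 and 3, which happened on some pair of arrays at 8 of all loci. PSBO2 (AT3G50820) was at 15.03 and then 15.11, 15.13 and 14.91, with array 3 lower than the control. PSBX was at 12.58 and then 12.60, 11.90 and 12.51. As at PSAD2, the low mean of PSBX (-0.24 ± 0.35) came from array 2 and was -0.024 without it. PSBS, PSBR and PSBW had hexenal arrays on both sides of the control, and PSBS had a mean difference of -0.026 ± 0.25, PSBW one of -0.093 ± 0.30.

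**Figure D4:**
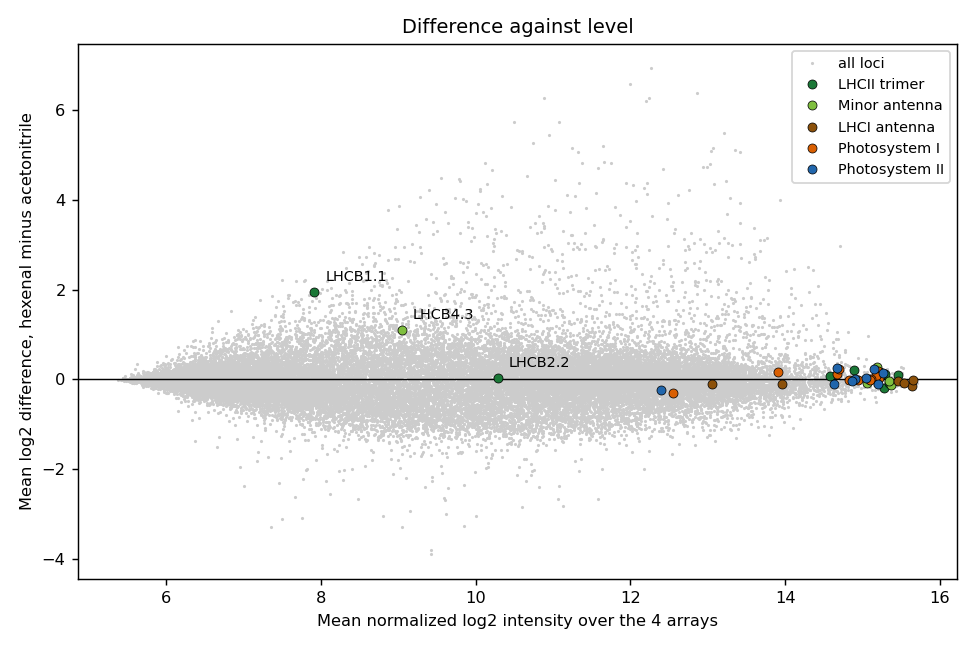
Mean log2 difference between hexenal and acetonitrile against the mean log2 level over the 4 arrays, for all 30361 loci (grey) and for the photosystem and antenna genes by complex (colours). The 33 members in the brightest 1% lie at the right edge between -0.19 and 0.27.

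Genes of photosystem II with its antenna (23) had a median difference of 0.034, and those of photosystem I with its antenna (18) one of -0.0087. The 3 genes with the lowest levels, LHCB1.1, LHCB4.3 and LHCB2.2, belong to the antenna of photosystem II, and without them the 38 other genes had differences between -0.29 and 0.27. A difference between the complexes was not tested.

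Other nuclear genes of photosynthesis were set beside them from lists chosen by function. Of 60 such loci none was called by limma, against 0.899% of all loci. An unadjusted p under 0.05 by limma was found for 2, PORA and ELIP1, against 8.75% of all loci. The median difference of the 60 was -0.019. Among 7 further photosystem genes the median was -0.17. The highest were PSBP2, a second PSBP gene, at 0.95 ± 0.42 and the antenna gene LHCB7 at 0.47 ± 0.23, and the lowest were the assembly factor gene PSB27 at -0.28 ± 0.28 and PSBY at -0.22 ± 0.23. LHCB7 was above the control on all 3 arrays by 0.51, 0.46 and 0.44, and PSBP2 by 0.64, 0.70 and 1.52.

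The 11 electron transport and ATP synthase genes had a median of -0.045. They ran from ATPC1 (-0.22 ± 0.30), the gamma subunit of ATP synthase, and the plastocyanin gene PETE1 (-0.16 ± 0.24) up to PGRL1A (0.19 ± 0.23) of cyclic electron flow and the ferredoxin-NADP reductase gene FNR2 (0.26 ± 0.25). For 10 carbon fixation genes the median was -0.073. The Rubisco small subunit gene RBCS1B was the lowest at -0.70 ± 0.39, with -0.19, -0.96 and -0.95 on arrays 1, 2 and 3, while RBCS3B was at -0.23 ± 0.24. At the other end of that list GAPB, a subunit of glyceraldehyde-3-phosphate dehydrogenase, was at 0.30 ± 0.23 and HCEF1, a fructose bisphosphatase gene, at 0.067 ± 0.23.

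Chlorophyll synthesis genes, 14 in number, had a median of 0.012. PORA, a light-dependent protochlorophyllide reductase gene known from seedlings in the dark, had the largest difference of the 60 loci. It was at 10.21 on the control array and at 12.32, 12.46 and 11.88 on the hexenal arrays, all of them higher. The mean difference was 2.01 ± 0.31, and the adjusted p of 0.0791 by limma missed the threshold. It passed without hexenal replicate 3 (adjusted p = 0.0438), with the dimmest 25% of loci left out (0.0490) and with eBayes using trend and robust (0.00348). Over all settings the adjusted p of PORA lay between 0.00348 and 0.359, the latter without hexenal replicate 2. The settings that PORA passed also called more loci over the whole table than the 273 given above. In the brightest 50% of loci on the control array, where PORA lies, 2.73% had a mean at least 2-fold higher with every hexenal array above the control. PORB was at 0.38 ± 0.26, and the lowest of the list were CHLM at -0.20 ± 0.27 and CHLD at -0.16 ± 0.24.

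Photoprotection genes, 8 in number, had a median of 0.21. ELIP1 and ELIP2 encode early light-induced proteins, relatives of the antenna proteins that appear under light stress. ELIP1 was at 7.99 with acetonitrile and 9.25, 9.01 and 8.83 with hexenal, higher on all arrays by a mean of 1.05 ± 0.27 (adjusted p = 0.300 by limma, not called). In the next dimmest 25% of loci on the control array, where ELIP1 lies, 7.11% had a mean at least 2-fold higher with every hexenal array above the control. ELIP2 was at 9.28 and then 10.49, 10.22 and 8.26, with array 3 below the control. OHP1, a one-helix relative of the antenna proteins, was at 0.46 ± 0.25, the kinase gene STN8 at -0.42 ± 0.31 and OHP2 at -0.16 ± 0.24.

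Regulators of these genes, 10 in number, had a median of -0.052. HY5, a transcription factor of light signalling, was at 0.50 ± 0.27 and PIF3, a phytochrome-interacting factor, at 0.41 ± 0.31. The lowest were PIF1 at -0.50 ± 0.27 and GLK2, a regulator of antenna and chlorophyll genes, at -0.46 ± 0.37. HY5, PIF3 and PIF1 kept one side of the control on all arrays, and so did GLK2, whose values were -0.90, -0.43 and -0.061. None of these 4 was called.

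**Figure D5:**
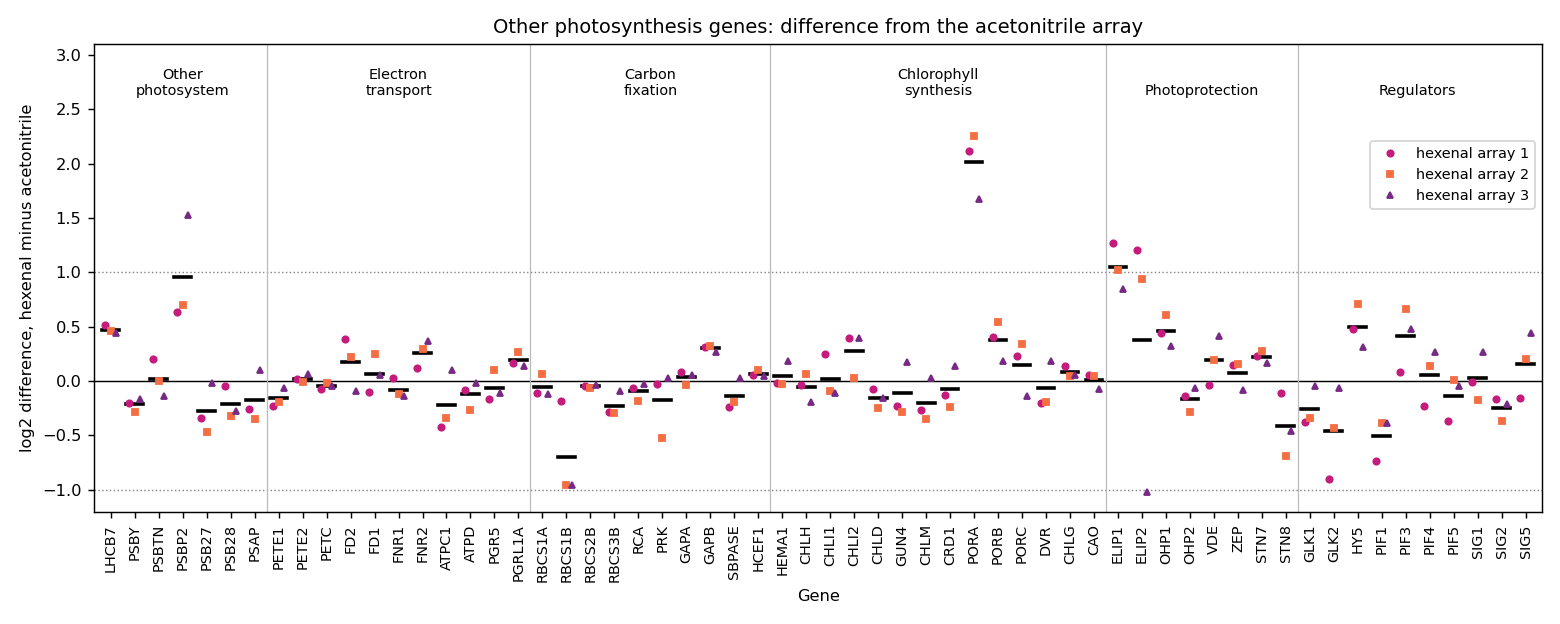
log2 difference of each hexenal array from the acetonitrile array for 60 other photosynthesis genes in 6 lists, with the mean as a black bar and dotted lines at a 2-fold change. PORA is the highest on average (2.01), followed by ELIP1 (1.05), and the lowest is RBCS1B (-0.70).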

How the data were processed

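Each locus has 1 deposited linear intensity on each array. How the authors corrected background, normalized, combined probes or called detection is, in the sources used here, not given. Between arrays the lower quartiles of log2 intensity differed by up to 0.20, so log2 values of the deposited intensities were quantile normalized. Columns of other samples: 0. All 4 arrays entered 1 fit over 30361 loci by limma 3.58.1 under R 4.3.3 (lmFit, then eBayes with no trend, two-sided, Benjamini-Hochberg adjustment over all loci). The 2 residual degrees of freedom of a locus come from the hexenal arrays. The fit was tested on simulated data. All 41 members and 72 loci of other lists were found in the RefSeq genes of TAIR10.1, which gave names and gene order only.

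The members and lists were chosen with earlier results of these data known. Values on every array are given for the 2 highest and 2 lowest members of each complex, members of families with several copies, the 3 brightest members and any called gene, and of each other list the 2 highest and 2 lowest loci are named. Settings tried in place of these were deposited values, median centring, cyclic loess, 16 added before the log, the dimmest 25% of loci left out, eBayes with trend and robust, other fold thresholds, and each hexenal replicate left out. Counts by array and calls in the other lists were added to the settings after the data were seen.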

Additional observations from a re-analysis of the deposited data

How the results depend on the processing

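The count of called members was 0 of 41 under all settings run. Without hexenal replicate 2 the count over all loci was 0 as well, so no member could be called there. In the fit of all arrays, the 27 genes less than 1 below the highest level could not be called as 2-fold higher. The count over all loci ran up to 628 with eBayes with trend and robust. The settings included an adjusted p alone, a 1.5-fold threshold and this eBayes fit, which gave the smallest adjusted p of a member, 0.0630 at LHCB1.1, where it ran up to 0.246. The differences of single members all moved by less than their SD over the hexenal arrays. With eBayes with trend and robust this was fixed in advance, since that fit uses the same levels. Leaving out 1 of 3 arrays could hardly give another result either. Members that changed sign (12 of 41 without hexenal replicate 2, 8 without replicate 3, 7 with cyclic loess) were under 0.2 in size in the fit of all arrays. The largest value after a change of sign was -0.41, at LHCB2.2 without replicate 3. All 6 medians lie near 0, and some moved by more than their spread between hexenal arrays, where the cause was not tested. Leaving out 1 replicate gave medians from -0.015 to 0.065 over all members, from -0.069 to 0.074 for the minor antenna and from 0.0026 to 0.096 for photosystem I subunits. With median centring the minor antenna was at -0.089 and photosystem II subunits at -0.045, and with cyclic loess the minor antenna was at 0.00069. The mean in place of the median was 0.091 over all members, 0.26 in the LHCII trimer and 0.23 in the minor antenna, since LHCB1.1 and LHCB4.3 enter it with their full size. Without members in the brightest 1%, which leaves 1 or 2 genes a complex, the medians were 0.99, 1.1, -0.070 and -0.24 for the LHCII trimer, the minor antenna, photosystem I and photosystem II. With cyclic loess 13 genes had all hexenal arrays above the control and 3 below, and the shares of all loci in that setting are not given. No paired analysis was possible because the labels give the control no replicate number. The single control and the top of the scale limit what these arrays can show.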
